A study of Mus musculus with 20 samples.

Results

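Resident Kupffer cell markers are described here as 10 genes picked by symbol from the 56748 genes of a liver count table: Clec4f, Timd4, Vsig4, Cd5l, Marco, Adgre1, Csf1r, C1qa, C1qb and Folr2. All 10 had counts in every library, and all 10 passed the filter on low counts that left 15669 genes for testing. The 20 libraries were made from total RNA of flash-frozen whole mouse liver, collected after a fast of 24 h, with 4 libraries in each of 5 groups. Cpt1DKO livers had a liver-specific double knockout of Cpt1a and Cpt1b. Cpt2KO livers had a liver-specific knockout of Cpt2, and TKO livers a liver-specific knockout of Cpt1a, Cpt1b and Cpt2. Cpt2PparaDKO livers had a liver-specific knockout of Cpt2 and of a gene the genotype label writes only as PPAR, which the series description names as Ppara. Control livers came from littermates carrying floxed Cpt1a, Cpt1b and Cpt2 alleles, and the same 4 Control libraries served all mutant groups. The Control label names no floxed Ppara, and the labels do not say which mutant groups these livers were littermates of. A difference between mouse lines therefore cannot be told apart from genotype. The sources used here do not give the Cre driver, the animals' ages or whether each library came from its own animal, so p-values reflect spread among libraries that may be technical.

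Kupffer cells are the macrophages that live in the sinusoids of the liver, where they clear microbes, dead cells and ageing red cells from portal blood. They are seeded in the embryo and renew themselves locally, and when they are lost, blood monocytes enter the liver and take on the same identity step by step. CPT1 and CPT2 carry long-chain fatty acids into hepatocyte mitochondria, and PPARalpha, encoded by Ppara, drives the hepatocyte's fasting programme. In whole liver RNA these 10 genes report on a minor cell population, and a lower level from fewer Kupffer cells cannot be told apart from less RNA per cell.

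Sequencing gave between 14129595 and 20273303 counts for 19 libraries, and Cpt2PparaDKO replicate 1 had 36452673. Xist and Y-linked counts gave a female pattern in 2 libraries, Cpt2KO replicate 3 and Cpt2PparaDKO replicate 4, and a male pattern in the other 18. Cpt1a, Cpt2 and Ppara were lower in the groups labelled as lacking them. Cpt1a averaged 155 ± 12.2 CPM in Cpt1DKO and 137 ± 12.7 CPM in TKO, against 1038 ± 76.5 CPM in Control (SD, n = 4 each). Cpt2 averaged 131 ± 23.6 CPM in Cpt2KO, 103 ± 11.7 CPM in TKO and 33.9 ± 4.86 CPM in Cpt2PparaDKO, against 249 ± 26.2 CPM in Control. Ppara averaged 73.2 ± 12.98 CPM in Cpt2PparaDKO and 233 ± 46.1 CPM in Control. Cpt1b was low in every group and was not lower in its knockouts, at 0.881 ± 0.216 CPM in Cpt1DKO and 2.80 ± 0.308 CPM in TKO, against 0.543 ± 0.215 CPM in Control. These counts therefore do not check the loss of Cpt1b, and which part of each gene was deleted is not known here. CPM are counts of a gene per 1000000 counts of its library, here after scaling by the trimmed mean of M values (TMM), a factor per library that centres most genes.

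The start sites of the 3 members whose values carry the comparisons are shown first. RefSeq's table of promoters, on build GRCm38.p6, spans 250 bases before to 50 bases after each gene's start and held entries for 7 of the 10 members. Capitals mark the 6-base runs GAGGAA and GGAAGT, cores bound by ETS factors such as PU.1, and TGCTGA, a core bound by basic leucine zipper factors, searched on both strands. The Clec4f promoter, at chr6:83656067-83656366 on the minus strand, belongs to the lectin gene that marks resident Kupffer cells most narrowly.
Clec4f: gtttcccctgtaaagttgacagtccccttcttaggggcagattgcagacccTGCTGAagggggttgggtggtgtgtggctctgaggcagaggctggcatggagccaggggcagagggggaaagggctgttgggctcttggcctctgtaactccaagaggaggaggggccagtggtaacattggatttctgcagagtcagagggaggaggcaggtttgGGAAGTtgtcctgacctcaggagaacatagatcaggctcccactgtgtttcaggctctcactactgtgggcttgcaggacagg
The Cd5l promoter, at chr3:87357631-87357930 on the plus strand, belongs to the member with the highest level per length.
Cd5l: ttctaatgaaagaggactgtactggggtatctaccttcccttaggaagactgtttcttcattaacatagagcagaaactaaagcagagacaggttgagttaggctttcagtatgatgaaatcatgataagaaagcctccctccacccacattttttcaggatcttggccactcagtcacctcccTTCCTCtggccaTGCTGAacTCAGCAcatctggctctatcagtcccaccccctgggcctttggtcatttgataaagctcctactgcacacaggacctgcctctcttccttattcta
The Marco promoter, at chr1:120504975-120505274 on the minus strand, belongs to the member that varied most between libraries.
Marco: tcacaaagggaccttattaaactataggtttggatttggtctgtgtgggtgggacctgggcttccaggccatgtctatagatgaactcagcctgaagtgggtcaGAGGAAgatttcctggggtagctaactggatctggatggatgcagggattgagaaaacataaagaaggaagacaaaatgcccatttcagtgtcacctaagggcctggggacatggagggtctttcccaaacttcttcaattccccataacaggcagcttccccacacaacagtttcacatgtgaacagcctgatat

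In the Clec4f sequence GGAAGT began 33 bases and TGCTGA 199 bases before the start. In the Marco sequence GAGGAA began 146 bases before it. The Cd5l sequence held GAGGAA on the opposite strand, beginning 66 bases before the start, and then TGCTGA on both strands, beginning 54 and 46 bases before it. These last 2 matches face each other across 2 bases, an arrangement spelled TGCTGANNTCAGCA. Any of the 3 short runs was found in 54.7% of the 32851 promoters in the table, so a single match sets no promoter apart. The paired arrangement, which was looked for after the Cd5l sequence had been seen, was found in 2 of the 32851 promoters. A match of letters is a description of sequence and not evidence of binding.

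Per unit of gene length, the members fell into an upper tier and a lower tail. Deposited FPKM divide counts by gene length and by a library size, which here matched the TMM-scaled totals (ratio 0.9795 to 1.001). They averaged 44.5 ± 19.97 over all 20 libraries for Cd5l, a secreted scavenger protein also called AIM (SD, n = 20). Clec4f averaged 33.8 ± 8.05 FPKM, and the complement genes C1qa and C1qb, which encode chains of the same C1q molecule, averaged 32.9 ± 7.50 and 32.4 ± 8.80 FPKM. The complement receptor Vsig4 averaged 14.6 ± 4.22 FPKM. Next came Csf1r, the receptor for the growth factor on which macrophages depend, at 8.06 ± 2.46 FPKM, and the scavenger receptor Marco at 7.68 ± 6.52 FPKM. Adgre1, which encodes the F4/80 antigen, averaged 3.83 ± 1.505 FPKM, and Timd4, a receptor for phosphatidylserine on dying cells, 2.67 ± 1.14 FPKM. The folate receptor gene Folr2 was the least abundant at 0.968 ± 0.432 FPKM. Its raw counts began at 11 in the lowest library, while those of Cd5l reached 5696 in the highest, so values of Folr2 carry the most counting error.

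Of the 9 pairs of neighbours in each group's order, library ranges did not overlap for 6 in Cpt2PparaDKO, 5 in Cpt1DKO, 2 in TKO and 0 in Cpt2KO, and for 2 in Control. In Control livers the library ranges of neighbours overlapped except between C1qb and Vsig4 and between Timd4 and Folr2. In Cpt2PparaDKO livers the order itself differed, with Marco at 15.4 ± 3.50 FPKM above Csf1r at 9.69 ± 0.597 FPKM and no overlap between them. There Cd5l, at 67.5 ± 12.8 FPKM, also stood clear of Clec4f at 40.3 ± 2.94 FPKM. In Control livers the Csf1r average was 8.15 ± 2.82 FPKM and the Marco average 6.27 ± 2.47 FPKM, with overlapping libraries.

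**Figure D1:**
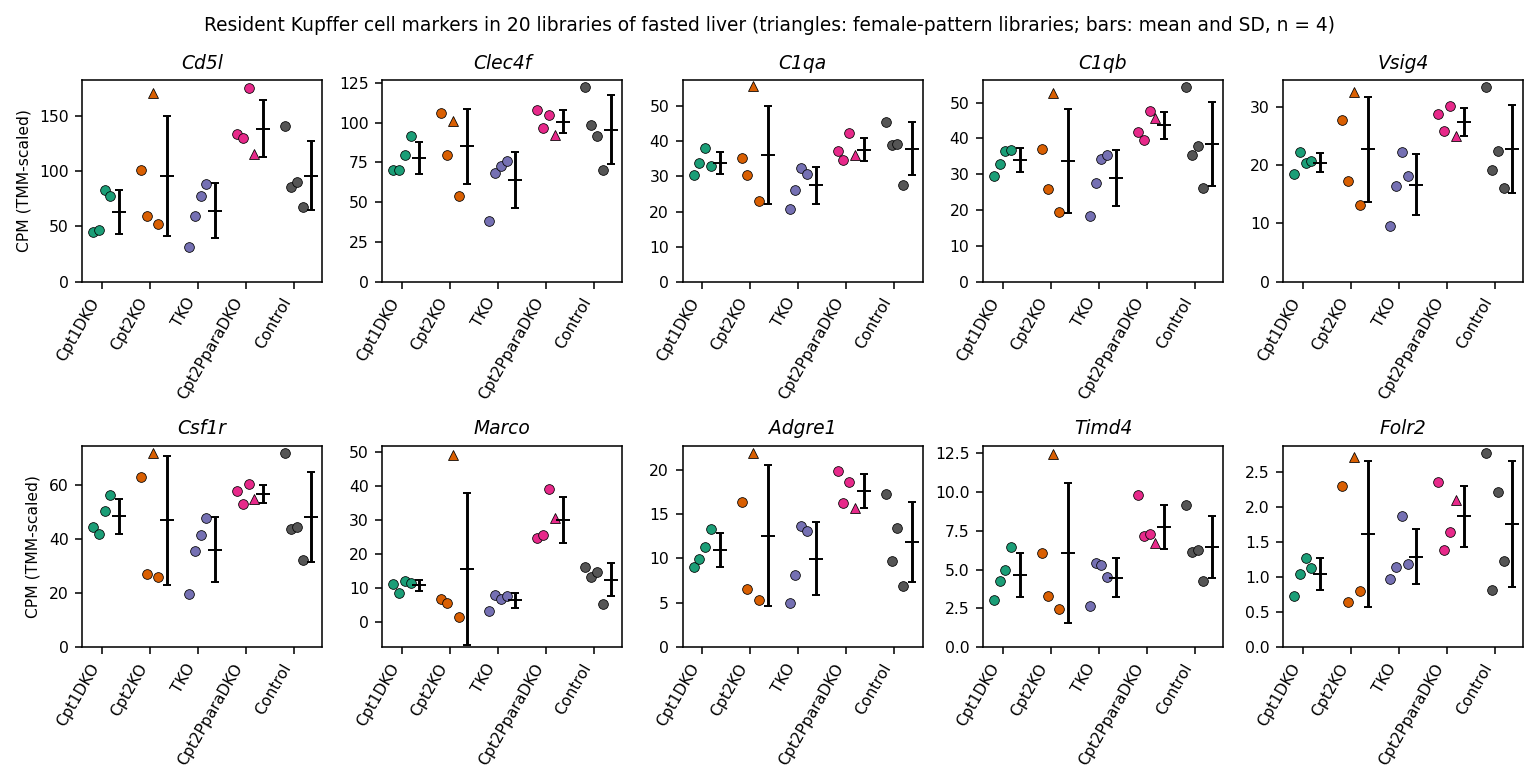
Level of each of the 10 markers in every library, in TMM-scaled CPM on a linear axis, by genotype group. Points are libraries, triangles are the 2 libraries with a female pattern, and bars give the mean and SD of 4 libraries. Marco reached 49.1 CPM in 1 Cpt2KO library and 1.27 CPM in another, and its 4 Cpt2PparaDKO libraries, from 24.6 to 39.1 CPM, all lie above the highest Control library.

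Marco differed from the other members in how far it varied. Its highest library held 38.7 times the CPM of its lowest, while for the other members this ratio lay between 2.70 for C1qa and 5.59 for Cd5l. The highest Marco library was Cpt2KO replicate 3 and the lowest was Cpt2KO replicate 4, so both extremes came from one genotype. The same Cpt2KO replicate 3 library was also the highest of its group for 9 of the 10 members, Clec4f being the exception. Within groups, the coefficient of variation of the members ran from 5.82 to 23.5% in Cpt2PparaDKO, 7.82 to 31.6% in Cpt1DKO, 19.3 to 41.5% in TKO and 27.9 to 144% in Cpt2KO, and 19.9 to 51.0% in Control. Cpt2KO had the highest coefficient of the 5 groups for 10 of 10 members. Cpt2PparaDKO had the lowest for 7 of 10, and Cpt1DKO the lowest for Vsig4, Marco and Folr2.

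The summed CPM of the 10 members shows this spread per library. Cpt1DKO libraries held 262, 272, 338 and 348 CPM. Cpt2KO libraries held 402, 256, 569.9 and 198 CPM, and TKO libraries 149.7, 256, 308 and 323 CPM. Cpt2PparaDKO libraries held 464, 430, 527 and 424 CPM, and Control libraries 513, 351, 362 and 257 CPM. Every group overlapped Control in this sum. All 4 Cpt2PparaDKO libraries were above the 3 lower Control libraries, and Control replicate 1 was exceeded only by Cpt2KO replicate 3 and Cpt2PparaDKO replicate 3.

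The members varied together from library to library. Over the 20 libraries the median Pearson correlation of a member with the other 9, on log2 CPM, was between 0.74 for Folr2 and 0.90 for C1qb, and the lowest pair was Marco with Folr2 at 0.59. These points share group, library and depth, so the correlations describe the libraries and carry no p. Of 13203 other genes averaging 1 CPM or more, the 10 most like the members' average included C1qc, the remaining chain gene of C1q, with r = 0.97. Ctss, a lysosomal protease of antigen-presenting cells, had r = 0.96, and Lyz2 and Cybb, which encode lysozyme and the catalytic subunit of the phagocyte oxidase, had r = 0.93 each. Adcy7, Rac2, Itgal, Adgre4, Sdc3 and Lilra5 made up the rest, with r from 0.92 to 0.95. Rac2 and Itgal are genes of blood cells in general, so the likeness is not limited to genes of Kupffer cells.

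**Figure D2:**
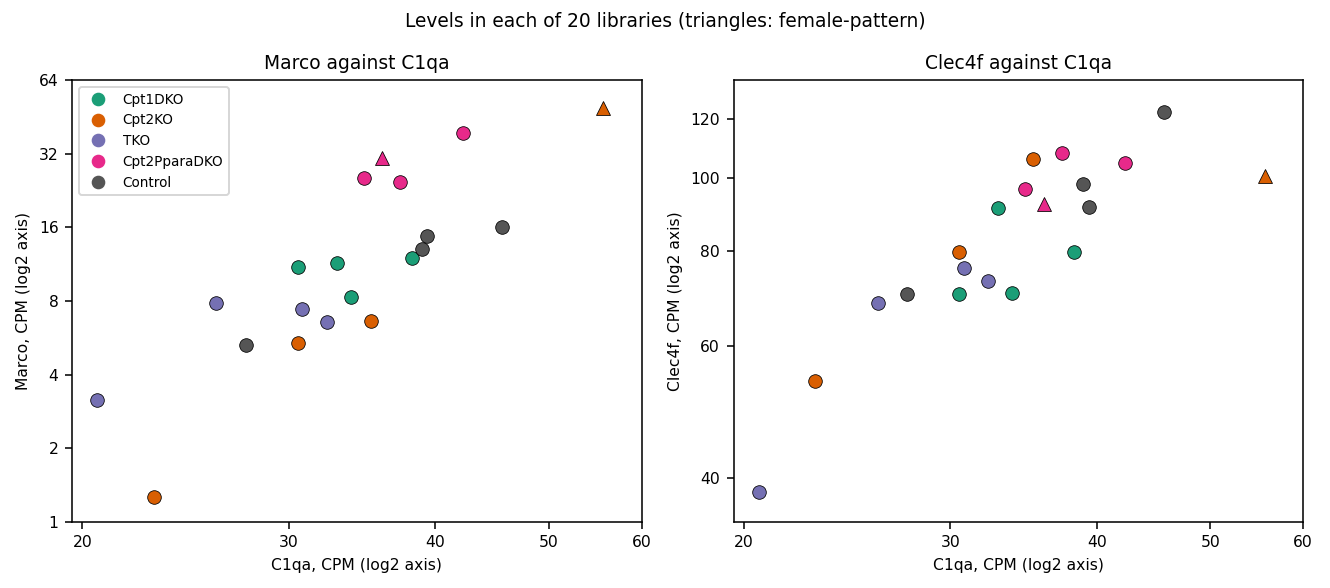
Marco (left) and Clec4f (right) against C1qa, in TMM-scaled CPM on log2 axes, with 1 point per library, colour for genotype group and triangles for the 2 libraries with a female pattern. The 4 Cpt2PparaDKO libraries and Cpt2KO replicate 3, at 49.1 CPM, hold the 5 highest Marco levels, and C1qa alone does not separate the groups.

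No member passed the test in livers with the knockout of Cpt1a and Cpt1b. By edgeR's quasi-likelihood test, adjusted by the Benjamini-Hochberg method over all 15669 genes, 0 of 10 members passed an adjusted p of 0.05 in Cpt1DKO against Control, where 5.55% of all tested genes did. No member had an unadjusted p under 0.05, and DESeq2 also called 0. The median log2 fold change of the members was -0.19, and over all tested genes it lay between -0.01 and 0.01 in every comparison made here. Cd5l stood at 44.9, 47.2, 83.3 and 77.5 CPM in Cpt1DKO livers, against 141, 85.9, 90.3 and 67.3 CPM in Control livers. In 2 Cpt1DKO libraries Cd5l was below every Control library and in the other 2 it lay among them, with a log2 fold change of -0.60 (SE 0.37, adjusted p = 0.371). For 6 of 10 members the 95% interval of the log2 fold change lay within a doubling and a halving, and for Clec4f it ran from -0.73 to 0.14.

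Loss of Cpt2 gave the same count and a much wider spread. In Cpt2KO against Control 0 of 10 members passed by edgeR, 0 had an unadjusted p under 0.05 and DESeq2 called 0, in a comparison in which 33.4% of all tested genes passed. The median of the members was -0.05, and 8 of the 10 intervals lay within a doubling and a halving. Marco was at 6.61, 5.38, 49.1 and 1.27 CPM in Cpt2KO livers, against 16.1, 13.1, 14.8 and 5.27 CPM in Control livers. A single Cpt2KO library was above all Control libraries and another was below all of them. Marco's log2 fold change was 0.35 (SE 0.70, adjusted p = 0.752) with all libraries and -1.46 (adjusted p = 0.0176) without Cpt2KO replicate 3, so that library set both its direction and its call. Timd4, with 6.07, 3.304, 12.4 and 2.48 CPM in Cpt2KO livers, against 9.12, 6.14, 6.24 and 4.27 CPM in Control livers, had 2 libraries below every Control library and the same replicate 3 above them. Adgre1 split in a like way, at 16.4, 6.55, 21.8 and 5.36 CPM in Cpt2KO livers, against 17.2, 9.72, 13.4 and 6.91 CPM in Control livers. The groups overlapped, with a log2 fold change of 0.08 (SE 0.39, adjusted p = 0.897).

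In livers with the knockout of Cpt1a, Cpt1b and Cpt2, all 10 members had a log2 fold change below 0 and 1 passed the test. The member was Clec4f, at 38.4, 68.3, 73.0 and 76.0 CPM in TKO livers, against 122, 98.4, 91.5 and 70.2 CPM in Control livers. The lowest Control library lay among the higher TKO libraries, so the groups overlapped. Clec4f averaged 63.9 ± 17.3 CPM in TKO and 95.6 ± 21.5 CPM in Control (SD, n = 4 each) and fell by 0.58 on the log2 scale (SE 0.21, adjusted p = 0.0442). The call sat at the edge of the threshold: it was lost in 13 of 20 fits that left out 1 library, with an adjusted p of up to 0.155 without Control replicate 1 and 0.149 without TKO replicate 1. It was also lost when only these 2 groups were fitted (adjusted p = 0.0898). TKO against Control called 27.4% of all tested genes, and 14.4% as lower, so 1 lower member of 10 does not exceed the background share.

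The other members of the TKO comparison gave values below Control that did not pass. C1qa was at 20.6, 26.0, 32.3 and 30.8 CPM in TKO livers, against 45.6, 39.0, 39.4 and 27.6 CPM in Control livers, with a log2 fold change of -0.46 (SE 0.20, adjusted p = 0.0979). Only the lowest Control library overlapped the TKO libraries. Marco was at 3.15, 7.82, 6.58 and 7.41 CPM in TKO livers and again overlapped Control only through its lowest library, with a log2 fold change of -0.98 (SE 0.72, adjusted p = 0.351). The members' median was -0.46, and 2 members had an unadjusted p under 0.05. DESeq2 called 1 member. Control replicate 1 held the highest Control level of all 10 members, and without it 9 of the 10 log2 fold changes were still below 0, with Adgre1 at 0.01. TKO replicate 1 held the lowest TKO level of all 10 members. Because the members varied together, their shared direction does not count as 10 separate results. In the authors' deposited table for this comparison, Clec4f had a log2 fold change of -0.57 (adjusted p = 0.0405) and Marco of -0.96 (adjusted p = 0.0208) (test not stated in the sources used here).

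**Figure D3:**
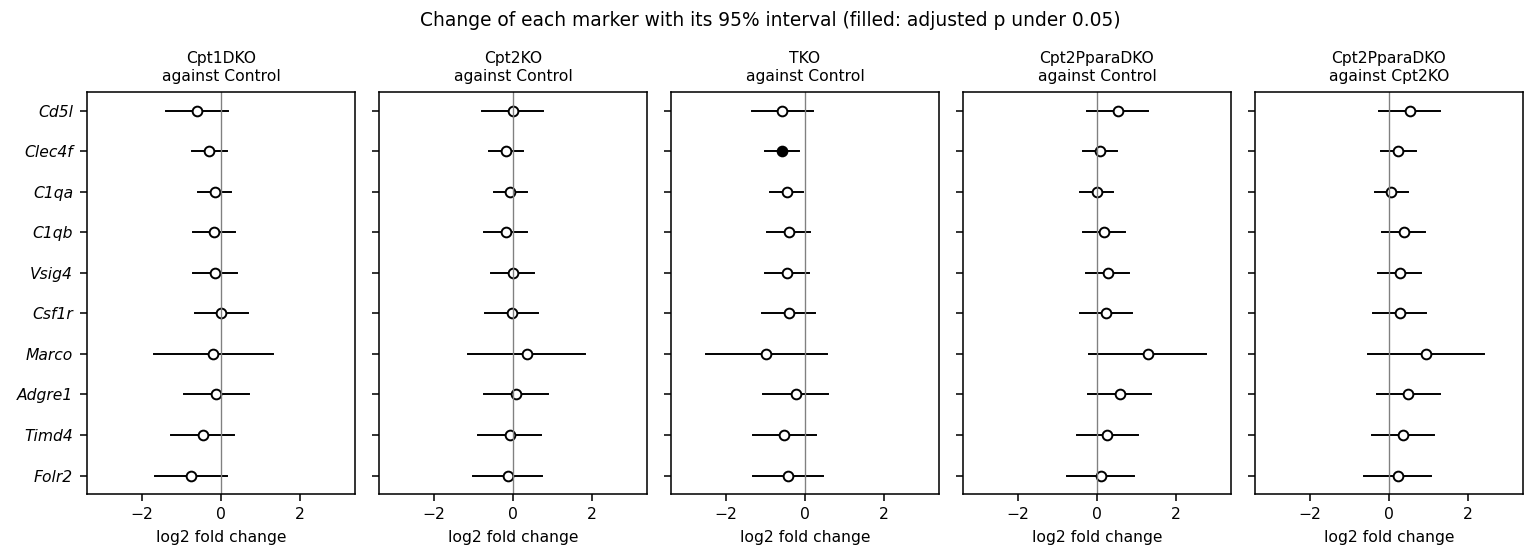
Log2 fold change of each marker with its 95% interval (edgeR) in 5 comparisons, with filled points for an adjusted p under 0.05. Clec4f in TKO against Control is the filled point, all 10 points lie left of 0 in that panel, and Marco has the widest interval in each panel.

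When Ppara was lost together with Cpt2, Marco stood above Control in every library. Its 4 Cpt2PparaDKO libraries held 24.6, 25.4, 39.1 and 30.7 CPM, against 16.1, 13.1, 14.8 and 5.27 CPM in Control livers, with no overlap. Marco was the single member whose libraries all lay above Control, in a comparison where 15.8% of all tested genes did so. Its mean was 29.9 ± 6.65 CPM in Cpt2PparaDKO and 12.3 ± 4.85 CPM in Control (SD, n = 4 each), a log2 fold change of 1.28 (SE 0.70). With the spread shared across all 20 libraries this did not pass (adjusted p = 0.175). It passed in the fit without Cpt2KO replicate 3 (1.31, adjusted p = 0.0137), and in the fit of these 2 groups alone (1.32, adjusted p = 0.00988), but not by DESeq2. The authors' deposited table gave Marco a log2 fold change of 1.31 with an adjusted p of 0.000194.

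The other 9 members did not stand apart from Control. In Cpt2PparaDKO against Control 0 of 10 members passed by edgeR, 0 had an unadjusted p under 0.05 and DESeq2 called 0, while 32.5% of all tested genes passed. The median of the members was 0.25, and 9 of 10 log2 fold changes were above 0. Cd5l was at 134, 130.0, 175 and 115.5 CPM in Cpt2PparaDKO livers, against 141, 85.9, 90.3 and 67.3 CPM in Control livers, so that Control replicate 1 alone lay among the mutant libraries (log2 fold change 0.53, SE 0.37, adjusted p = 0.288). Adgre1 showed the same arrangement, with 19.8, 16.3, 18.6 and 15.6 CPM in Cpt2PparaDKO livers, against 17.2, 9.72, 13.4 and 6.91 CPM in Control livers (0.57, SE 0.38, adjusted p = 0.271). Clec4f, at 108, 96.7, 105 and 92.4 CPM in Cpt2PparaDKO livers, lay inside its Control range, with a 95% interval from -0.36 to 0.50. C1qa gave a log2 fold change of -0.01 with an interval from -0.43 to 0.41.

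The members not yet given by library overlapped Control as well. Vsig4 ranged from 24.9 to 30.2 CPM in Cpt2PparaDKO and from 16.1 to 33.3 CPM in Control (log2 fold change 0.27, adjusted p = 0.461). C1qb ranged from 39.5 to 47.6 CPM in Cpt2PparaDKO and from 26.0 to 54.4 CPM in Control (0.18, adjusted p = 0.619). Csf1r ranged from 52.8 to 60.3 CPM in Cpt2PparaDKO and from 32.3 to 71.5 CPM in Control (0.23, adjusted p = 0.604). In each of these the 4 Cpt2PparaDKO libraries lay above the 3 lower Control libraries and below Control replicate 1. Folr2, at 1.38 to 2.35 CPM in Cpt2PparaDKO and 0.81 to 2.76 CPM in Control, did not share that arrangement (0.09, adjusted p = 0.883).

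Scaling changed the count of called members in that comparison. With library totals alone, in place of TMM, the median of all tested genes in Cpt2PparaDKO against Control moved to 0.48 and 6 members were called higher: Clec4f, Vsig4, Cd5l, Marco, Adgre1 and C1qb. Under that scaling 54.0% of all tested genes were called, 47.5% as higher. Relative to that shifted median, the members' median was 0.23, against 0.25 under TMM.

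Set directly against Cpt2KO livers, Cpt2PparaDKO livers had all 10 log2 fold changes above 0, with a median of 0.31, and 0 passed by edgeR. No member had an unadjusted p under 0.05 and DESeq2 called 0, while 24.4% of all tested genes passed. Marco's libraries, given above, overlapped through Cpt2KO replicate 3 alone, and its log2 fold change was 0.94 (SE 0.69, adjusted p = 0.356). Without that library 4 members were called higher in Cpt2PparaDKO: Marco at 2.77 (adjusted p = 0.000326), Timd4 at 0.98 (adjusted p = 0.0291), Cd5l at 0.97 (adjusted p = 0.0493) and C1qb at 0.68 (adjusted p = 0.0452). In that fit 23.5% of the 16005 genes tested were called, 11.8% as higher. Timd4 was at 9.81, 7.13, 7.29 and 6.71 CPM in Cpt2PparaDKO livers, all above the 3 other Cpt2KO libraries, the highest of which had 6.07 CPM. The library left out was one of the 2 with a female pattern, so a difference of sex cannot be told apart from a difference of that single library.

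Other mutant groups were also compared with each other. TKO adds the loss of Cpt1a and Cpt1b to that of Cpt2KO, and the loss of Cpt2 to that of Cpt1DKO. Cpt2KO and Cpt1DKO share no deleted gene. TKO against Cpt2KO, Cpt2KO against Cpt1DKO and TKO against Cpt1DKO each had 0 of 10 members passing by edgeR, 0 with an unadjusted p under 0.05 and 0 by DESeq2. Of all tested genes 0.0511%, 14.1% and 4.65% passed in these comparisons, in that order. Marco libraries of TKO lay entirely below those of Cpt1DKO, at 3.15 to 7.82 CPM in TKO and 8.30 to 12.0 CPM in Cpt1DKO, with a log2 fold change of -0.77 (SE 0.73, adjusted p = 0.615). Of all tested genes 6.33% had libraries entirely below in that comparison. The interaction, which asks whether Cpt2 loss acted differently with Cpt1a and Cpt1b already lost, also had 0 of 10 members passing by edgeR, 0 at an unadjusted p under 0.05 and 0 by DESeq2, beside 2.70% of all tested genes. Its intervals were wide, and 3 of 10 lay within a doubling and a halving.

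To compare the markers with each other inside a liver, each member was expressed as a log2 ratio to Adgre1, which macrophages in general share. In 45 exact two-sided permutation tests, 9 members in 5 comparisons, 0 passed after Benjamini-Hochberg adjustment (lowest adjusted p = 0.257). With 4 libraries against 4 the smallest possible p is 0.0286, and 26 of the 45 tests would have had to reach it for any to pass, so the design had little room. The 3 ratios at that smallest raw p were all in Cpt2PparaDKO against Control. Clec4f per Adgre1 was 2.51 ± 0.06 in Cpt2PparaDKO and 3.06 ± 0.31 in Control on the log2 scale, C1qa per Adgre1 was 1.097 ± 0.13 in Cpt2PparaDKO and 1.73 ± 0.30 in Control, and Vsig4 per Adgre1 was 0.64 ± 0.07 in Cpt2PparaDKO and 0.97 ± 0.19 in Control (SD, n = 4 each). As levels, the log2 fold changes there were 0.07 for Clec4f, -0.01 for C1qa and 0.27 for Vsig4, against 0.57 for the denominator Adgre1. None of these levels passed, that of Adgre1 included (edgeR adjusted p = 0.271), and what set the lower ratios was not tested. Per Ptprc, the other denominator tried, the differences in that comparison were -0.51 for Clec4f, -0.59 for C1qa and -0.28 for Vsig4. Their exact permutation p were 0.0286, 0.0571 and 0.0286 (adjusted p = 0.129, 0.161 and 0.129). Marco per Adgre1 went the other way, at 0.75 ± 0.34 in Cpt2PparaDKO and 0.02 ± 0.35 in Control (difference 0.73, exact permutation p = 0.0571).

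The counts of other gene lists below are to be read beside the shares of all tested genes called against Control. For Cpt1DKO 2.44% were called higher and 3.10% lower, for Cpt2KO 16.2% higher and 17.2% lower, for TKO 13% higher and 14.4% lower, and for Cpt2PparaDKO 14.9% higher and 17.6% lower. Of 12 genes through which neighbouring cells signal to Kupffer cells, 1 was called higher and 2 lower in Cpt2KO against Control, 1 and 2 in TKO, and 4 and 2 in Cpt2PparaDKO, while in Cpt1DKO 0 were higher and 1 lower. The list medians were 0.23 for Cpt1DKO, 0.19 for Cpt2KO, 0.04 for TKO and 0.46 for Cpt2PparaDKO against Control, on the log2 scale. Csf1, a ligand of the receptor encoded by Csf1r, rose in Cpt2PparaDKO livers to 14.6 ± 1.88 CPM, against 8.74 ± 0.440 CPM in Control livers (log2 fold change 0.74, adjusted p = 0.00527). It fell in Cpt2KO livers by 0.53 (adjusted p = 0.0427) and in TKO livers by 0.81 (adjusted p = 0.0039). Il34, which encodes the other ligand of that receptor, averaged 2.49 CPM in Cpt2PparaDKO and 2.39 CPM in Control. Csf1r itself averaged 56.4 ± 3.28 CPM in Cpt2PparaDKO and 48.0 ± 16.7 CPM in Control, and 0 comparisons called it. Gas6, a bridge between dying cells and receptors of phagocytes, rose in Cpt2KO by 1.42, in TKO by 1.13 and in Cpt2PparaDKO by 1.28 on the log2 scale, and Dll1, a Notch ligand, fell in all 4 mutant groups. Tgfb1 (0.93) and Bmp10 (0.78) rose in Cpt2PparaDKO.

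Among 12 transcription factor genes of Kupffer cells, several are also expressed by hepatocytes, so a change in whole liver cannot be assigned to Kupffer cells. Cpt1DKO had 0 called, Cpt2KO 3 higher and 2 lower, TKO 1 and 2, and Cpt2PparaDKO 2 and 2, with medians of -0.02, 0.02, 0.04 and 0.17 in the same order of groups. Spi1, which encodes PU.1, the ETS factor of macrophages, rose by 0.91 in Cpt2PparaDKO (9.98 ± 1.84 CPM in Cpt2PparaDKO and 5.31 ± 1.86 CPM in Control, adjusted p = 0.0255). Rxra, a nuclear receptor partner, fell in Cpt2KO, TKO and Cpt2PparaDKO, by 0.96 in the last. Id3, an inhibitor of helix-loop-helix factors, rose by 1.24 in Cpt2KO against Control and fell by 1.16 in Cpt2PparaDKO against Cpt2KO.

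Of a further 13 genes of resident Kupffer cells, 4 were called in Cpt2PparaDKO against Control, beside 32.5% of all tested genes. In Cpt1DKO 0 were higher and 1 lower, in Cpt2KO and in TKO 1 and 1, and in Cpt2PparaDKO 3 and 1, with medians of -0.02, 0.03, -0.35 and 0.41. The lower gene was Hpgd in every case, a prostaglandin-degrading enzyme, at 55.9 ± 2.13 CPM in Cpt2PparaDKO and 120.4 ± 13.2 CPM in Control. Hmox1, which breaks down haem, rose by 2.59 in Cpt2KO and 1.84 in TKO. As with the transcription factors, changes of this list in whole liver cannot be assigned to Kupffer cells. Cd207 (0.86), Cd38 (0.58) and Fcna (0.44) rose in Cpt2PparaDKO. Without the female-pattern libraries the count of higher genes in Cpt2PparaDKO was 1, beside 13.3% of all genes tested in that fit. Cd163, the haemoglobin scavenger receptor, was at 16.7 ± 4.50 CPM in Cpt2PparaDKO and 32.6 ± 9.22 CPM in Control and did not pass (log2 fold change -0.96, adjusted p = 0.0822).

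**Figure D4:**
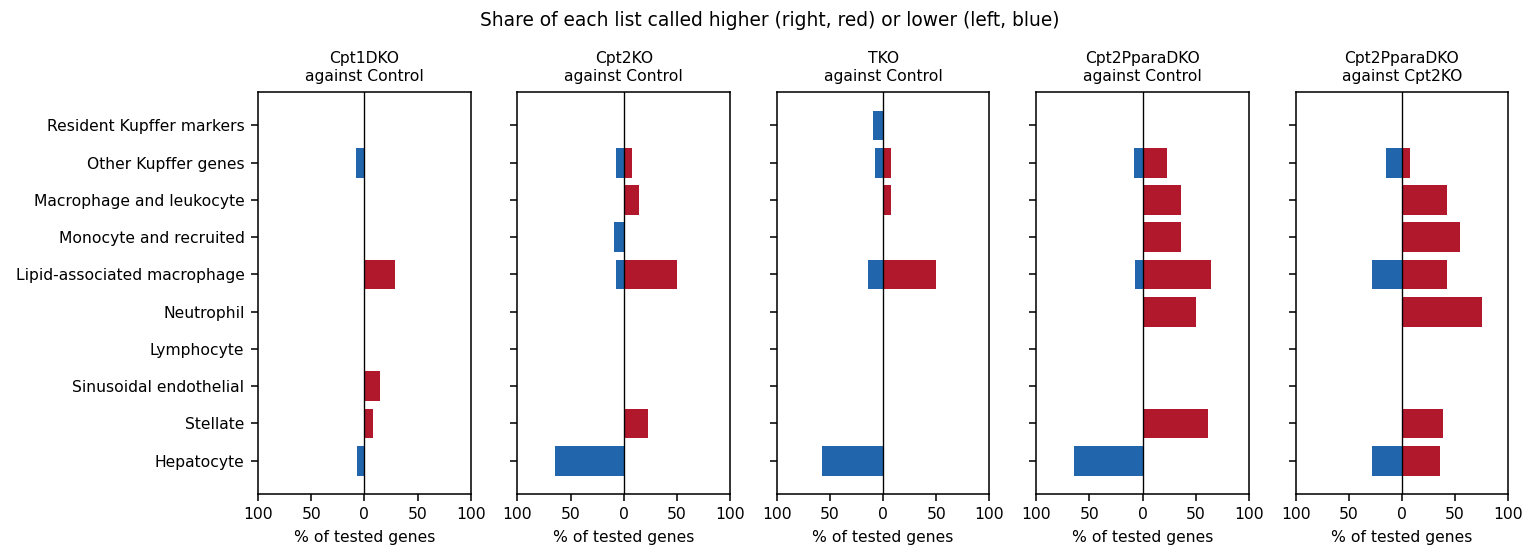
Share of the tested genes of each list that were called higher (bars to the right) or lower (bars to the left) at an edgeR adjusted p under 0.05, for the same 5 comparisons. Of the resident markers 1 of 10 was called, in TKO against Control, where 27.4% of all tested genes were. Lists of recruited and lipid-associated macrophages had 4 of 11 and 9 of 14 genes higher in Cpt2PparaDKO against Control, and the stellate list 8 of 13. In that comparison 32.5% of all tested genes were called in either direction.

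Some genes of macrophages in general and of recruited cells were called higher in Cpt2PparaDKO against Control, where 14.9% of all tested genes were. Of 14 genes shared by macrophages and other leukocytes, 5 were higher and 0 lower in Cpt2PparaDKO against Control, 2 and 0 in Cpt2KO, 1 and 0 in TKO and 0 in Cpt1DKO, with list medians of 0.61, -0.23, -0.48 and -0.20 in that order. Itgb2, a leukocyte integrin chain, was at 16.2 ± 2.39 CPM in Cpt2PparaDKO and 5.997 ± 1.64 CPM in Control, and Mpeg1, a pore-forming protein of phagocytes, at 89.6 ± 13.8 CPM in Cpt2PparaDKO and 48.9 ± 14.9 CPM in Control. Cd14 was also called, at 5.86, 6.02, 6.36 and 49.4 CPM in Cpt2PparaDKO libraries and 2.43 to 3.93 CPM in Control libraries, with the high value in the female-pattern library. Cd68, a lysosomal glycoprotein of phagocytes, rose to 75.1 ± 24.7 CPM in Cpt2PparaDKO, 40.3 ± 13.5 CPM in Cpt2KO and 34.3 ± 3.14 CPM in TKO, against 8.47 ± 2.69 CPM in Control. Of 11 tested genes of monocytes and recruited macrophages, 4 were higher in Cpt2PparaDKO against Control and 6 against Cpt2KO (12.1% of all tested genes were higher in the second), with medians of 1.00 and 0.87 and 0 lower in either. Chil3 rose to 4.10 ± 0.775 CPM in Cpt2PparaDKO, against 0.379 ± 0.353 CPM in Control, and Ccr2, the chemokine receptor of inflammatory monocytes, to 3.01 ± 0.9748 CPM in Cpt2PparaDKO, against 1.102 ± 0.496 CPM in Control. The summed level of that list still overlapped, at 92.5 to 141 CPM in Cpt2PparaDKO and 61.8 to 155 CPM in Control. Control libraries held 91.45, 61.8, 155 and 64.7 CPM, so the overlap came through Control replicate 3 alone. None of the 14 genes listed for monocytes and recruited macrophages was at 0 in every library. Clec4e (3.02) and Itgax (2.02) were the other called genes in Cpt2PparaDKO against Control. With library totals alone 7 of these genes, and 13 of the 14 shared ones, were called higher in that comparison, beside 47.5% of all tested genes. In Cpt2KO against Control 1 gene of this list was lower (Cx3cr1, by 1.67), and in Cpt1DKO and TKO 0 were called.

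Of 14 genes of lipid-associated macrophages, Cpt1DKO had 4 called higher against Control, Cpt2KO 7, TKO 7 and Cpt2PparaDKO 9, beside 2.44%, 16.2%, 13% and 14.9% of all tested genes in the same order, with 0, 1, 2 and 1 lower and medians of 0.09, 0.66, 0.72 and 1.42. Gpnmb, a glycoprotein of lipid-laden phagocytes, averaged 38.0 ± 13.7 CPM in Cpt2KO, 23.7 ± 3.18 CPM in TKO and 39.1 ± 10.9 CPM in Cpt2PparaDKO, against 0.249 ± 0.257 CPM in Control. Mmp12, a macrophage elastase, averaged 23.7 ± 4.57 CPM in Cpt2PparaDKO and 0.316 ± 0.201 CPM in Control, while in Cpt2KO it was at 0.451 ± 0.296 CPM and not called. Trem2, a lipid receptor of the same cells, was called in Cpt2PparaDKO (log2 fold change 2.37) and in 0 of the other comparisons with Control. Cd63, of late endosomes, rose by 3.59 in Cpt2KO, 2.69 in TKO and 3.57 in Cpt2PparaDKO, and Plin2, which coats lipid droplets, rose in all 4 groups, most in Cpt2KO (3.11). Spp1, also a bile duct marker, was called lower in Cpt2KO (-1.47, adjusted p = 0.0013) and TKO (-1.02, adjusted p = 0.0186). In Cpt1DKO (-0.84) and Cpt2PparaDKO (-0.36) it was not called. Hepatocytes also express genes of this list such as Plin2, Cd36 and Apoe. Of 11 scavenger receptor genes, 1 was higher in Cpt1DKO, and 2 were higher and 2 lower in each of Cpt2KO, TKO and Cpt2PparaDKO, with medians of -0.10, 0.05, -0.15 and 0.25 in that order. Cd36, a fatty acid receptor, rose in Cpt1DKO, Cpt2KO and TKO. Tyro3, a receptor for Gas6, rose by 2.70 in Cpt2KO, 1.95 in TKO and 2.39 in Cpt2PparaDKO. Clec7a (2.07) was the other that rose in Cpt2PparaDKO, and Scarb1 (log2 fold change -1.04) and Lrp1 (-1.29), which hepatocytes express, fell there.

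Some markers of other liver cells were also called, and their part in the values above was not tested. Of 14 hepatocyte genes, 1, 9, 8 and 9 were lower in Cpt1DKO, Cpt2KO, TKO and Cpt2PparaDKO against Control, and 0 were higher. Fga fell by 2.43 in Cpt2KO, and Cyp2e1 by 1.79 in Cpt2PparaDKO. The summed level of the list was 56050 to 60640 CPM in Cpt2PparaDKO and 108700 to 133000 CPM in Control. Stellate cell genes were higher for 8 of 13 in Cpt2PparaDKO, 3 in Cpt2KO, 1 in Cpt1DKO and 0 in TKO, and sinusoidal endothelial genes for 2 of 14 in Cpt1DKO and 0 in the other groups. Of 4 tested neutrophil genes 2 were higher in Cpt2PparaDKO, and of 10 lymphocyte genes 0 were called in any mutant group. Bile duct markers had 1 of 8 higher in each mutant group and 0, 2, 2 and 1 lower in Cpt1DKO, Cpt2KO, TKO and Cpt2PparaDKO. Erythroid transcripts, which track blood left in the tissue, had 3 of 6 higher and 1 lower in Cpt2KO, 1 higher in TKO and 0 called in Cpt1DKO and Cpt2PparaDKO.

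The members lie at separate places in the genome, apart from the complement pair. On build GRCm39, as the count table gives them, C1qb spans 136607440 to 136613498 and C1qa 136623228 to 136626114 of chromosome 4, both on the minus strand and not overlapping. Clec4f lies on chromosome 6 (83621524 to 83633169, minus strand), Cd5l on chromosome 3 (87265188 to 87278380, plus strand) and Marco on chromosome 1 (120402267 to 120432753, minus strand). Timd4 lies on chromosome 11 (46701627 to 46735159, plus strand), Adgre1 on chromosome 17 (57665691 to 57790527, plus strand) and Csf1r on chromosome 18 (61233670 to 61265221, plus strand). Folr2 lies on chromosome 7 (101489195 to 101506401, minus strand) and Vsig4 on the X chromosome (95290809 to 95337044, minus strand). All 10 are annotated as protein-coding. The strand setting of the counting is not known here, so reads from a gene and an antisense partner could not be told apart.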

How the data were processed

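The authors deposited raw counts of reads for each gene from 20 liver libraries, with FPKM beside them. Alignment with HISAT2 and build GRCm39 are named per the submitters' processing notes (version, counting tool and strand setting not given in the sources used here). The authors also deposited tables of log2 fold changes and adjusted p-values. Every count column was matched by title, with 0 unmapped. FPKM served only to compare levels between genes.

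One edgeR 4.0.16 quasi-likelihood model (R 4.3.3, robust, filterByExpr with a minimum count of 10, TMM) on genotype group took in all 20 libraries, and p-values were adjusted by the Benjamini-Hochberg method over 15669 genes. Every adjusted p without another source comes from it. On counts simulated for Cpt2KO against Control over 15669 genes, with 100 genes changed at each size, it recovered 49% of changes of log2 size 1 and 89% of size 2. The data themselves had 33.4% of genes called in that comparison, so these rates do not give its sensitivity. DESeq2 1.42.0, library totals alone, no filter, the compared groups alone, a replicate block, another ratio denominator (Ptprc), and fits without each library or the female-pattern libraries were tried.

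Replicate numbers did not pair the libraries: deviations of same-numbered libraries correlated between -0.23 and 0.29, and 6 of 40 pairs exceeded 0.1. Pairs of libraries within a group differed beyond sampling noise (chi-square per degree of freedom 12.5 to 168). The naming rule covered all 10 members and, from each other list, up to 4 of the largest called changes, with the targeted genes and the 10 genes most like the members. Fcna, Cd163, Bmp10, Il34, Ccr2, Trem2, Spp1, Apoe and Lrp1 were named after their values were seen. The members and lists were chosen with earlier results of these data known. The lists covered Kupffer cells, their transcription factors and signals, macrophage states, scavenger receptors and the other liver cell types. One gene of the transcription factor list is not reported here by name.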

Additional observations from a re-analysis of the deposited data

Results flagged for a closer look

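The level of Marco in the Cpt2KO group was marked by one library far from the other 3. Cpt2KO replicate 3 held 49.1 CPM and the next highest Cpt2KO library 6.61 CPM, a gap of 0.888 of the group's whole range, where 0.829 is Dixon's critical value for 4 libraries. Of 50 combinations of member and group examined this was the only one marked, and chance alone marks about 1 group in 20.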

How the results depend on the processing

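The count of called members was 0 under every alternative run for Cpt1DKO against Control, TKO against Cpt1DKO, TKO against Cpt2KO, Cpt2KO against Cpt1DKO and the interaction. In TKO against Control the count was 0 with library totals alone, without a filter, with only the compared groups, and with the replicate block (Clec4f -0.57, adjusted p = 0.0690), and 2 lower without the female-pattern libraries (Clec4f, and C1qa at -0.46); leaving out 1 library gave 0 to 1. In Cpt2PparaDKO against Control it was 6 with library totals alone, 1 with only the compared groups and 1 without the female-pattern libraries (Marco in both), and 0 to 1 leaving out 1 library. Without the female-pattern libraries Cpt2KO against Control had 1 lower, Marco, which reversed to -1.47 (adjusted p = 0.0210; leaving out 1 library gave -1.46 to 0.73 for Marco and 0 to 1 called), and Cpt2PparaDKO against Cpt2KO had 2 higher, with 0 to 4 leaving out 1 library. Leaving out the female-pattern libraries and Control replicate 1 together, chosen after seeing the data, gave 0 in TKO against Control, 1 in Cpt2PparaDKO against Control (Marco 1.46) and 4 in Cpt2PparaDKO against Cpt2KO. Without the female-pattern libraries all tested genes gave 4980 calls in TKO and 4421 in Cpt2PparaDKO against Control. Cpt2KO against Control gave 5692, and Cpt2PparaDKO against Cpt2KO 4128. The main fit gave 4287, 5091, 5228 and 3822 in that order, of 15669 genes. With only the compared groups Cpt2PparaDKO against Control gave 4824. The joint exclusion gave 4286 there and 4076 in Cpt2PparaDKO against Cpt2KO. The replicate block changed no other call. Ratios to Ptprc gave 0 passing (lowest adjusted p = 0.129, exact permutation), as ratios to Adgre1 did, and neither set had much room to pass. Which ratios reached the smallest raw p differed between the denominators. The ratios had no test without a library, since 3 against 4 cannot go below an exact permutation p of 0.0571. The cause of these shifts was not tested. Folr2 and Timd4 had the fewest counts on average, which limits the precision of their changes.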
